A study of Homo sapiens with 6 samples.

Results

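The HDAC family of classes I and II was examined in HT29, a human colon adenocarcinoma cell line, after 48 h without histidine or without tryptophan. The family was taken as 10 genes, HDAC1 to HDAC10, of the 60676 genes listed in the deposited tables, and each was found by its gene symbol in GENCODE release 44. All 10 passed the filter on low counts, a mean of 10 or more normalized counts, in every comparison. The family was chosen from these same data for HDAC9, whose reads after histidine depletion give it its label, so the values of HDAC9 are reported as a description with no test. The other 9 genes belong to the family by name alone, and each of them was tested in a fit across all genes.

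The 3 groups of wild-type HT29 cells, recorded as untreated, histidine depletion and tryptophan depletion, were measured as 2 libraries each, which gave 6 libraries of polyadenylated RNA. The histidine-free medium was prepared on an RPMI base and the tryptophan-free medium on a DMEM F-12 base, both with dialyzed serum. Which base and serum the sequenced control cells were kept in is not given in the sources used here. Depletion therefore cannot be told apart from base medium, nor, against untreated cells, from serum. Between 46390819 and 64388876 reads were recovered per library. Replicate libraries differed by more than counting noise, with a chi-square per degree of freedom of 8.77 for the untreated, 4.03 for the histidine-depleted and 1.85 for the tryptophan-depleted pair. The labels do not say whether replicates were separate cultures, so the p-values measure only the spread between these samples, which may be technical.

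Histone deacetylases remove acetyl groups from lysines of histones and other proteins. Class I enzymes (HDAC1, HDAC2, HDAC3 and HDAC8) are mainly nuclear, and the first 3 work inside large co-repressor complexes. Class IIa enzymes (HDAC4, HDAC5, HDAC7 and HDAC9) have weak catalytic activity of their own, bind MEF2 transcription factors as co-repressors, and leave the nucleus when kinases phosphorylate them. Class IIb holds HDAC6, a cytoplasmic deacetylase of tubulin, and HDAC10, a deacetylase of polyamines.

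HDAC9 (ENSG00000048052) lies on the forward strand of chromosome 7 in GRCh38, chr7:18086949-19002416, a span of 915468 bases of which 17284 are exonic. GENCODE lists 36 transcripts for it, 23 of them protein-coding with 20 distinct starts, and the counts are per gene, so they do not show which start was used. The 250 bases upstream of 3 RefSeq starts of HDAC9 (GRCh38.p14, forward strand, no overlap with its exons) are printed because they are the candidate upstream sequences of the gene that gives the family its label. RefSeq windows of HDAC9 at chr7:18495499-18495748 and chr7:18496012-18496261 share 39 and 250 bases with its exons and are not printed. Capitals mark matches to the motif GGGCGG, here read on the opposite strand.
HDAC9 window 1, chr7:18086575-18086824: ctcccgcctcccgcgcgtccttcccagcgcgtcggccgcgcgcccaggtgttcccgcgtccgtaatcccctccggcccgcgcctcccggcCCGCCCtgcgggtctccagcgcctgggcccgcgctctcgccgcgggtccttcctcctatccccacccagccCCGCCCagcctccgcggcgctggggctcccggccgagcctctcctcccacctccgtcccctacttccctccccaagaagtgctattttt
HDAC9 window 2, chr7:18495460-18495709: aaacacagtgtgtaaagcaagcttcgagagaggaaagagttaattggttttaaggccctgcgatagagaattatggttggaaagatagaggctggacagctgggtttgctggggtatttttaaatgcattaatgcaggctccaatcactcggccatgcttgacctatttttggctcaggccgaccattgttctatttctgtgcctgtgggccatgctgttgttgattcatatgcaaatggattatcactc
HDAC9 window 3, chr7:18509020-18509269: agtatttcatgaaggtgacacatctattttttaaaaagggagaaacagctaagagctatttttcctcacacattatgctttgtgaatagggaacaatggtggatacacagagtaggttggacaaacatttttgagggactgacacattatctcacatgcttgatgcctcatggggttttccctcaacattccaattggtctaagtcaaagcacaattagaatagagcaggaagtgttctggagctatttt

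The first window was rich in G and C (75.2%, with 32 CpG pairs) and the other windows were not (44% with 4 pairs, and 38.4% with 0 pairs), against medians of 58.0% and 11 pairs over 35116 RefSeq promoters of the same length. GGGCGG was present 2 times in the first window and absent from the others, and 42.6% of all promoters hold it. The AP-1 motif TGACTCA, the cAMP response motif TGACGTCA, the E-box CACGTG, the TATA motif TATAAA and the amino acid response motif TGATGNAA, searched on both strands, had no match in any of the 3 windows. They occur in 4.20%, 1.65%, 6.34%, 10.7% and 3.14% of all promoters. The HDAC9 windows that overlap its exons held no match to any of the motifs, GGGCGG included. RefSeq promoter entries were found for 9 of the 10 genes, all but HDAC5. Among the other members, GGGCGG was found 3 times upstream of HDAC1, 1 time upstream of HDAC3 and 4 times upstream of HDAC10. It was found 2, 1 and 3 times in the 3 windows of HDAC6, and 1 time in 1 of the 5 windows of HDAC4. It was not found upstream of HDAC2, HDAC7 or HDAC8.

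HDAC9, a co-repressor studied in muscle and in regulatory T cells, was far higher after histidine depletion than in untreated cells. The untreated libraries held 81.1 and 74.1 normalized counts of HDAC9 and the histidine-depleted libraries 4461 and 4388, in the table of histidine depletion. In recovered reads these values were 75 and 75 against 4937 and 4331. The means, 77.6 ± 4.96 and 4424 ± 51.8 (SD, n = 2 each), are 57.0-fold apart, a log2 fold change of 5.82 on the log2(normalized count + 1) scale. Both histidine-depleted libraries stood far above both untreated ones. In order of log2 fold change HDAC9 stood at position 23 of 18288 genes tested and at position 15 of the 13196 protein-coding ones.

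Tryptophan depletion gave a smaller difference. In its own table the untreated libraries held 80.6 and 73.3 normalized counts of HDAC9 and the tryptophan-depleted ones 158 and 171, a fold of 2.14 and a log2 fold change of 1.09. The groups did not overlap, and the gene stood at position 1556 of 17960. On a scale common to all 6 libraries, the histidine-depleted libraries held 4461 and 4407 normalized counts and the tryptophan-depleted ones 162 and 174. That difference amounts to 26.4-fold, or 4.71 on the log2 scale. Both comparisons with untreated cells use the same untreated libraries, so they are not independent of each other, and untreated values differ slightly between tables because each was normalized on its own.

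**Figure D1:**
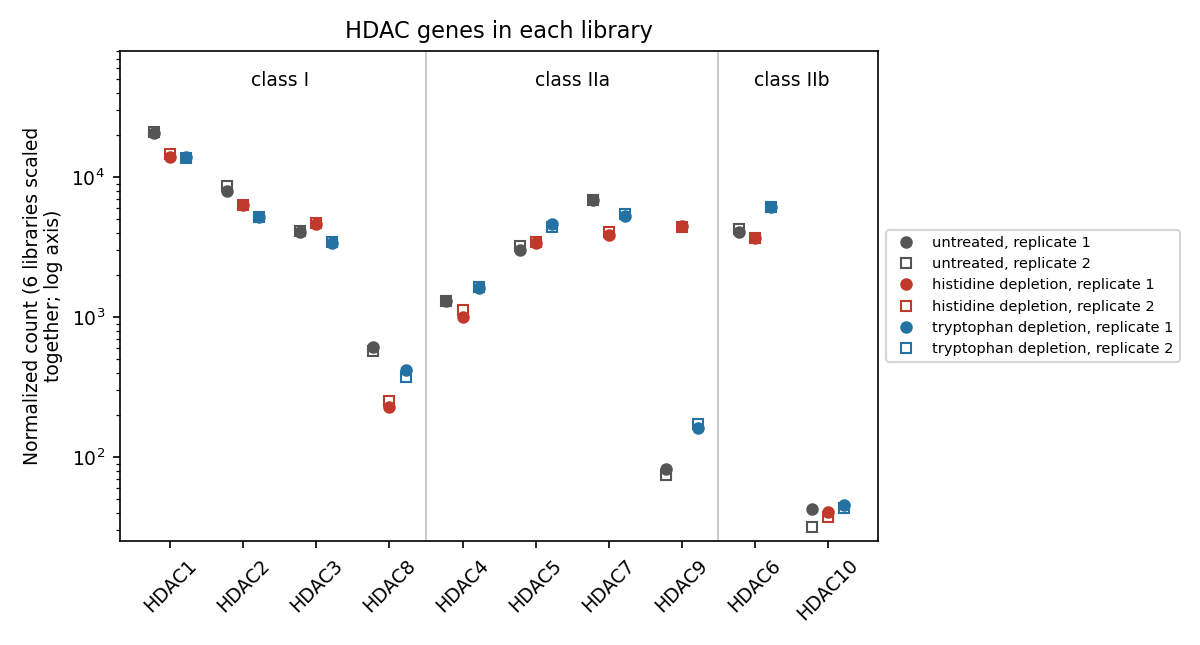
Normalized counts of the 10 HDAC genes in each of the 6 libraries, scaled together (log axis). Filled circles are replicate 1 and open squares replicate 2; HDAC9 moves from 82.0 and 74.6 in untreated cells to 4461 and 4407 after histidine depletion, while HDAC10 stays between 31.8 and 45.9.

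The labelled cell type was checked against marker genes. Of 11 markers of colon epithelium, 10 were above 3 reads in every library, and the exception was CDX1, with 20 and 19 reads in untreated cells, 0 in both histidine-depleted libraries and 5 and 3 in the tryptophan-depleted ones. The summed level of this list was between 2370 and 3309 RPKM, reads scaled to exon length and library size. Its members differed in direction after histidine depletion, values given here with no test. LGALS4, a galectin of the gut epithelium, was at 479.7 and 485 RPKM in untreated cells and at 135 and 151 without histidine, and CDX2, an intestinal transcription factor, at 2.63 and 2.48 and then 0.888 and 0.835. CEACAM5, a surface glycoprotein of colon epithelium, was at 2.46 and 2.59, then 0.288 and 0.449, and at 36.7 and 36.2 RPKM without tryptophan. The keratin gene KRT20 went from 106 and 107 to 311 and 313 RPKM, and KRT19 from 167 and 176 to 424 and 456. Among markers of other cells, 2 lists were higher in the histidine-depleted libraries. The 10 leukocyte markers summed to 1.15 and 1.07 RPKM in untreated cells, 1.97 and 1.99 without histidine and 1.16 and 1.03 without tryptophan, with PTPRC, CD3E, KIT, TPSAB1, TPSB2 and CPA3 at or under 3 reads in every library. The 6 muscle and neuron markers summed to 0.262 and 0.278, then 0.972 and 0.951, then 0.161 and 0.119 RPKM. MYOG, MYH7 and NEUROD1 were at or under 3 reads throughout. SYP went from 54 and 76 reads in untreated cells to 431 and 377 after histidine depletion. DES went the other way, from 9 and 7 reads to 0 and 0, and RBFOX3 was at 8 and 6 and then 8 and 7. The fibroblast and endothelial sums stayed at or under 0.190 RPKM in all libraries. Within the endothelial list VWF went from 7 and 4 reads in untreated cells to 47 and 40 after histidine depletion. PECAM1 went the other way, from 44 and 37 reads to 9 and 9, and CDH5 and KDR were at or under 3 reads throughout. In bulk RNA a change in the share of cells and a change in RNA per cell cannot be told apart, and the part of these markers in the HDAC9 result was not tested.

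Levels of different genes were compared per length, as RPKM over the union of exons in GENCODE release 44. This measure lowers genes with long annotated exons that are not all used, such as HDAC8 with 22888 exonic bases and HDAC9 with 17284. HDAC2 has 15333, HDAC6 14472 and HDAC4 14179, while HDAC1 has the fewest of the 10, 3966. Distances between members therefore depend on these lengths. In untreated cells HDAC1 was the most abundant member at 102 RPKM, followed by HDAC3 (17.2), HDAC7 (13.4), HDAC2 (10.5), HDAC5 (7.96), HDAC6 (5.59), HDAC4 (1.79), HDAC8 (0.502), HDAC10 (0.146) and HDAC9 (0.0880). The 2 libraries of each gene lay apart from those of the next gene in this order. HDAC9 was the lowest of the 10 in untreated cells on this scale. In recovered reads HDAC10 was lower, at 39 and 32 against 75 and 75 for HDAC9.

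After histidine depletion the order became HDAC1 (62.1 RPKM), HDAC3 (17.3), HDAC5 (7.68), HDAC2 (7.04), HDAC7 (6.88), HDAC9 (4.39), HDAC6 (4.35), HDAC4 (1.29), HDAC8 (0.179) and HDAC10 (0.135). HDAC9 was at the sixth position, with libraries at 4.44 and 4.35 RPKM that overlapped those of HDAC6, at 4.35 and 4.36. HDAC2 and HDAC7 overlapped as well. After tryptophan depletion the order was HDAC1 (64.2), HDAC3 (13.7), HDAC5 (10.9), HDAC7 (9.94), HDAC6 (7.73), HDAC2 (6.23), HDAC4 (2.12), HDAC8 (0.319), HDAC9 (0.179) and HDAC10 (0.165). No neighbours overlapped there, and HDAC9 was at the ninth position.

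Within class IIa the share of HDAC9 was of another order after histidine depletion. It made up 0.401% and 0.355% of the summed class IIa level in untreated cells, 22.2% and 21.3% after histidine depletion, and 0.742% and 0.801% when tryptophan was withheld. The class IIa sum was 23.3 and 23.2 RPKM in untreated cells and 20.0 and 20.5 RPKM after histidine depletion, of which 15.6 and 16.1 RPKM came from HDAC4, HDAC5 and HDAC7. After tryptophan depletion the sum was 23.3 and 23.1 RPKM. Over all 10 genes the summed level was 159.7 and 159.4 RPKM in untreated cells, 109.9 and 112.8 RPKM without histidine, and 116.1 and 115.0 RPKM without tryptophan. HDAC1 alone made up 64.3% and 64.0% of it in untreated cells, 55.4% and 56.1% without histidine, and 55.7% and 55.5% without tryptophan. The size of these shares depends on the exon lengths used.

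**Figure D2:**
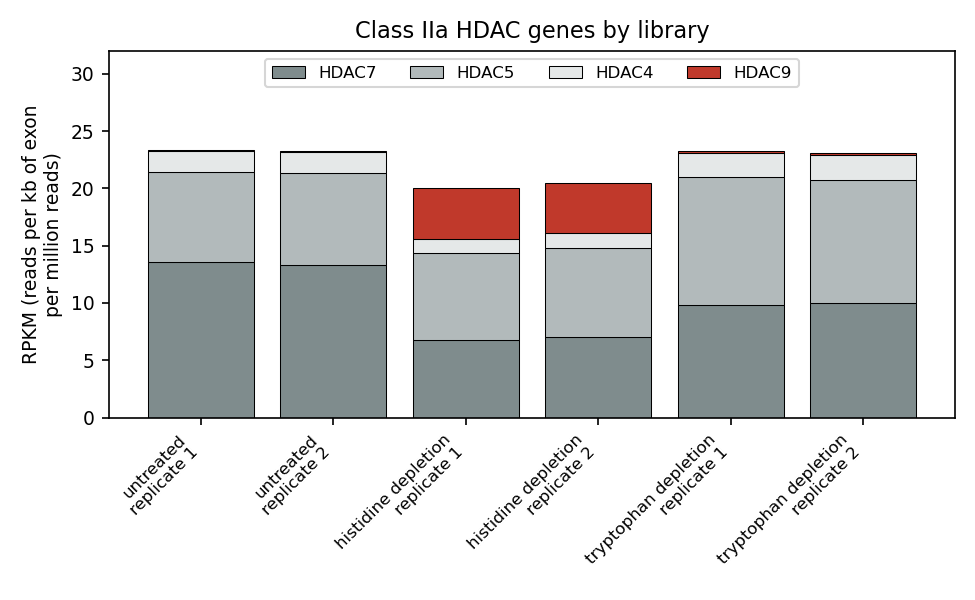
Level of the class IIa genes in each library, stacked, in RPKM (the axis starts at 0). HDAC9, in red, is 0.0935 and 0.0825 RPKM in untreated cells, 4.44 and 4.35 RPKM without histidine and 0.173 and 0.185 RPKM without tryptophan.

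The other 9 members moved by much less after histidine depletion, and mostly downward. Of the 9 tested, 2 were higher and 6 lower than in untreated cells and 1 did not pass (limma, adjusted p under 0.05), with log2 fold changes between -1.30 and 0.20 and a median of -0.28. Over all 18288 genes tested, 39.1% were called higher and 38.2% lower, with a median of 0.010, so that most genes were called in this comparison whatever their family. With a log2 fold change of at least 1 added to the rule, 0 members were higher and 1 was lower, HDAC8, against 16.4% and 16.1% of all genes. The higher members, HDAC3 and HDAC5, depend on the scaling. When values were scaled to total reads, as RPKM is, the median of all genes was -0.18, 32.3% of genes were called higher and 45.9% lower, and 0 members were higher and 6 lower, an alternative added after seeing the data.

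Class I held the largest decrease after histidine depletion. HDAC8 (chrX:72329516-72573101), an enzyme that deacetylates cohesin, was at 601 and 571 normalized counts in untreated cells and at 228 and 249 after histidine depletion. It fell 2.46-fold (-1.30 ± 0.094 on the log2 scale, standard error from limma, adjusted p = 6.23e-12), and the groups were well apart. HDAC1 (chr1:32292083-32333635) went from 20437 and 21037 to 14034 and 14644 normalized counts (-0.53, adjusted p = 1.21e-09). HDAC2 (chr6:113933028-114011308), its close paralog in the same complexes, went from 7838 and 8584 to 6318 and 6266 (-0.38, adjusted p = 4.39e-07). Both genes were lower in both depleted libraries. HDAC3 (chr5:141620876-141636849), the enzyme of the NCoR/SMRT complex, went from 3988 and 4105 to 4637 and 4672 (0.20, adjusted p = 0.000818), a call that quantile normalization (0.064, adjusted p = 0.105) and scaling to total reads (0.013, adjusted p = 0.748) removed.

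Among the class IIa relatives of HDAC9, none moved as it did. HDAC7 (chr12:47782722-47833132), known for its roles in endothelial cells and thymocytes, went from 6755 and 6880 normalized counts to 3891 and 4064 (-0.78, limma adjusted p = 5.79e-13). HDAC4 (chr2:239048168-239401654), a regulator of chondrocyte and muscle gene expression, went from 1288 and 1298 to 1010 and 1119 (-0.28, adjusted p = 0.000464). Both fell. HDAC5 (chr17:44076746-44123702), known from cardiac muscle, was at 3011 and 3186 normalized counts in untreated cells and at 3381 and 3437 after histidine depletion (0.14, adjusted p = 0.0202). This call was lost without histidine-depleted replicate 1 (adjusted p = 0.0951), without replicate 2 (0.162) and without untreated replicate 1 (0.0770). Scaled to total reads its direction turned (-0.051, adjusted p = 0.232), with 7.87 and 8.04 RPKM in untreated cells and 7.63 and 7.74 RPKM without histidine.

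In class IIb, HDAC6 (chrX:48801377-48824982) was at 4043 and 4222 normalized counts in untreated cells and at 3659 and 3677 after histidine depletion (-0.17, limma adjusted p = 0.00393). Without histidine-depleted replicate 1 or replicate 2 its adjusted p was 0.0616 or 0.0503. HDAC10 (chr22:50245183-50251405) was at 42.2 and 31.6 normalized counts in untreated cells and 40.7 and 37.5 after histidine depletion, and the groups overlapped (0.093, 95% interval -0.43 to 0.62, adjusted p = 0.749). Its 32 to 47 reads per library leave that interval wide.

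**Figure D3:**
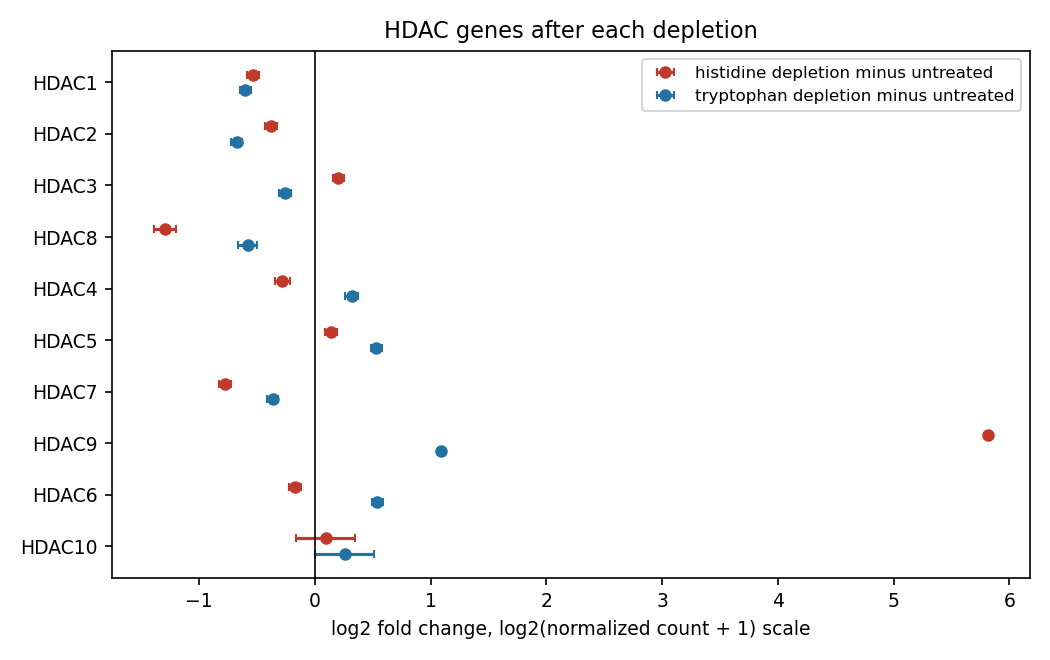
Log2 fold change of each HDAC gene after histidine depletion (red) and after tryptophan depletion (blue) against untreated cells, with the standard error from limma as a bar except for HDAC9, which was not tested. HDAC9 lies at 5.82 and 1.09, and the other genes lie between -1.30 and 0.54.

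Tryptophan depletion moved several members in another direction than histidine depletion did. Of the 9 members other than HDAC9, 3 were higher and 5 lower than in untreated cells and 1 did not pass, with a median log2 fold change of -0.26 and a range from -0.68 to 0.54. Over all 17960 genes tested, 36.1% were higher and 34.8% lower, with a median of 0.013. None of the 9 reached a log2 fold change of 1 in either direction, which 10.0% of all genes did upward and 10.4% downward under the same test.

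All 4 class I genes fell after tryptophan depletion. HDAC2 went from 7785 and 8495 normalized counts to 5044 and 5122 (-0.68, limma adjusted p = 2.66e-28) and HDAC1 from 20300 and 20819 to 13564 and 13550 (-0.60, adjusted p = 1.44e-23). HDAC8 went from 597 and 565 to 412 and 366 (-0.58, adjusted p = 4.64e-10), and HDAC3 from 3961 and 4063 to 3327 and 3380 (-0.26, adjusted p = 8.39e-07). In each of the 4 genes both depleted libraries were below both untreated ones.

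The class II genes were divided. HDAC6 rose from 4016 and 4178 normalized counts to 5937 and 5975 (0.54, limma adjusted p = 5.41e-21), and HDAC5 from 2991 and 3153 to 4507 and 4363 (0.53, adjusted p = 1.10e-19). HDAC4 rose from 1280 and 1284 to 1576 and 1619 (0.32, adjusted p = 3.72e-07). HDAC7 was the class IIa gene that fell, from 6710 and 6809 to 5167 and 5336 (-0.36, adjusted p = 4.71e-12). HDAC10 was at 41.9 and 31.3 normalized counts in untreated cells and at 44.7 and 42.3 after tryptophan depletion, a difference that did not pass (0.26, 95% interval -0.25 to 0.76, adjusted p = 0.370).

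Compared directly, with the recovered reads of all 6 libraries scaled together, histidine depletion gave higher values than tryptophan depletion in 2 of the 9 members and lower values in 5, and 2 did not pass. The median log2 difference was -0.41, with a range from -0.73 to 0.44. Of 18264 genes tested, 38.7% were higher and 38.0% lower, with a median of 0.011. With a log2 difference of at least 1 the share was 16.0% higher and 15.8% lower, and 0 of the 9 members were among them.

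The genes higher under histidine depletion in this comparison were both of class I. HDAC3 was at 4637 and 4693 normalized counts against 3416 and 3441 after tryptophan depletion (0.44, limma adjusted p = 1.72e-08), and HDAC2 at 6317 and 6293 against 5179 and 5215 (0.28, adjusted p = 1.61e-05). HDAC1 did not pass, with 14032 and 14707 against 13926 and 13795 (0.052, 95% interval -0.031 to 0.13, adjusted p = 0.239), and its difference turned negative under quantile normalization (-0.10, adjusted p = 0.00548). HDAC8 was lower, with 228 and 250 against 423 and 373 (-0.73, adjusted p = 1.21e-06).

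Class II genes other than HDAC9 were lower under histidine depletion where they differed. HDAC6 was at 3658 and 3692 normalized counts against 6095 and 6083 after tryptophan depletion (-0.73, limma adjusted p = 1.90e-11). HDAC4 was at 1010 and 1124 against 1618 and 1648 (-0.62, adjusted p = 2.78e-08). The differences of HDAC7 (-0.43, adjusted p = 3.15e-08) and HDAC5 (-0.41, adjusted p = 1.67e-07) were smaller, and that of HDAC10 did not pass (-0.18, 95% interval -0.69 to 0.33, adjusted p = 0.506).

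Some members share exonic bases with other genes, and how strand and shared reads were counted is not given in the sources used here. HDAC9 shares no exonic base with another gene. HDAC10 shares 55.8% of its exonic bases with MAPK12, a stress kinase on the same strand, which was itself lower after histidine depletion (-0.70, limma adjusted p = 1.95e-07) and did not pass after tryptophan depletion (0.092, adjusted p = 0.300). The read count, level and rank of HDAC10 may be affected by this sharing, which was not tested. HDAC5 shares 24.0% with G6PC3, a glucose-6-phosphatase gene on the opposite strand. G6PC3 was at 0.15 (adjusted p = 0.0157) after histidine and at -0.79 (adjusted p = 3.20e-30) after tryptophan depletion on the log2 scale, while HDAC5 was at 0.14 and 0.53. The antisense gene HDAC2-AS2 covers 0.450% of the exonic bases of HDAC2. Its log2 fold change was 1.57 (adjusted p = 5.27e-07) after histidine and -1.18 (adjusted p = 0.00189) after tryptophan depletion. HDAC1 has 2 named pseudogenes, HDAC1P1 and HDAC1P2, with which its reads could be shared.

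The study concerns translation without histidine, so codon content was read from the principal coding sequence of each member. HDAC9 has 41 histidine codons among 1069 (3.84%). The share ranged from 2.90% in HDAC1 to 4.44% in HDAC3, and all 10 members were above the median of 2.43% over 19755 protein-coding genes. HDAC9 has 5 tryptophan codons (0.468%, against a median of 1.13%). These are properties of the annotation, and the RNA counts hold no measurement of translation.

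Other deacetylases outside classes I and II were examined beside the family. The list of HDAC11, the sole class IV member, and the sirtuins, deacylases that use NAD as a cosubstrate, held 8 genes, of which 4 were higher, 3 lower and 1 not called after histidine depletion (median 0.26), beside 39.1% and 38.2% of all genes called higher and lower. HDAC11 was at 934 and 1026 normalized counts in untreated cells and 195 and 245 after histidine depletion, a decrease that passed the test (-2.16, limma adjusted p = 8.31e-16). After tryptophan depletion it was at 1098 and 1042 against 927 and 1015 (0.14, adjusted p = 0.0416). That call was lost without untreated replicate 1 (adjusted p = 0.285) and without either tryptophan-depleted library (0.328 and 0.0782), and when scaled to total reads (0.282). The direct difference was -2.31 (adjusted p = 2.28e-13).

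The largest increase in this list was that of SIRT4, a mitochondrial sirtuin. It went from 10.8 and 9.88 normalized counts to 176 and 203 after histidine depletion (4.07, limma adjusted p = 4.78e-14) and from 10.7 and 9.78 to 38.5 and 39.6 after tryptophan depletion (1.83, adjusted p = 8.42e-07). SIRT6, a chromatin sirtuin, rose after histidine depletion (1.86, adjusted p = 2.46e-18) and did not pass after tryptophan depletion (0.16, adjusted p = 0.0548). SIRT2, which like HDAC6 deacetylates tubulin, rose after tryptophan depletion (1.01, adjusted p = 6.85e-45) and fell after histidine depletion (-0.22, adjusted p = 0.000392). After tryptophan depletion 7 of the 8 genes were higher, HDAC11 with its unstable call among them, and 0 lower, beside 36.1% and 34.8% of all genes.

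Partners and counterparts of the HDACs were described in 13 lists, HDAC11 and the sirtuins included, that together hold 133 genes. Of 128 tested after histidine depletion, 57 were higher, 47 lower and 24 not called, with a median of 0.078. With a mean of at least 50 required over the libraries compared, a limit applied to these lists after seeing the data, 51 of 119 were higher, 46 lower and 22 not called (median 0.055). After tryptophan depletion 52 of 125 were higher, 46 lower and 27 not called (median 0.049), and in the direct comparison 62 of 127 were higher, 51 lower and 14 not called (median 0.078). The 62 include MEF2C, CAMK1G and CAMK4, which passed the filter only through the histidine-depleted libraries, so their calls are no support for the lists. The shares called over all genes are those given above for each comparison. List counts after histidine depletion moved with the scaling. Scaled to total reads, genes called lower numbered 5 in place of 3 for NCoR and SMRT, 4 in place of 1 for the MEF2 list, 7 in place of 4 for polyamine metabolism, 5 in place of 2 for the acetyltransferases and 2 in place of 1 for MiDAC and MIER, and NuRD genes called higher numbered 2 in place of 5. After tryptophan depletion SIN3 genes called higher numbered 3 in place of 5.

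**Figure D4:**
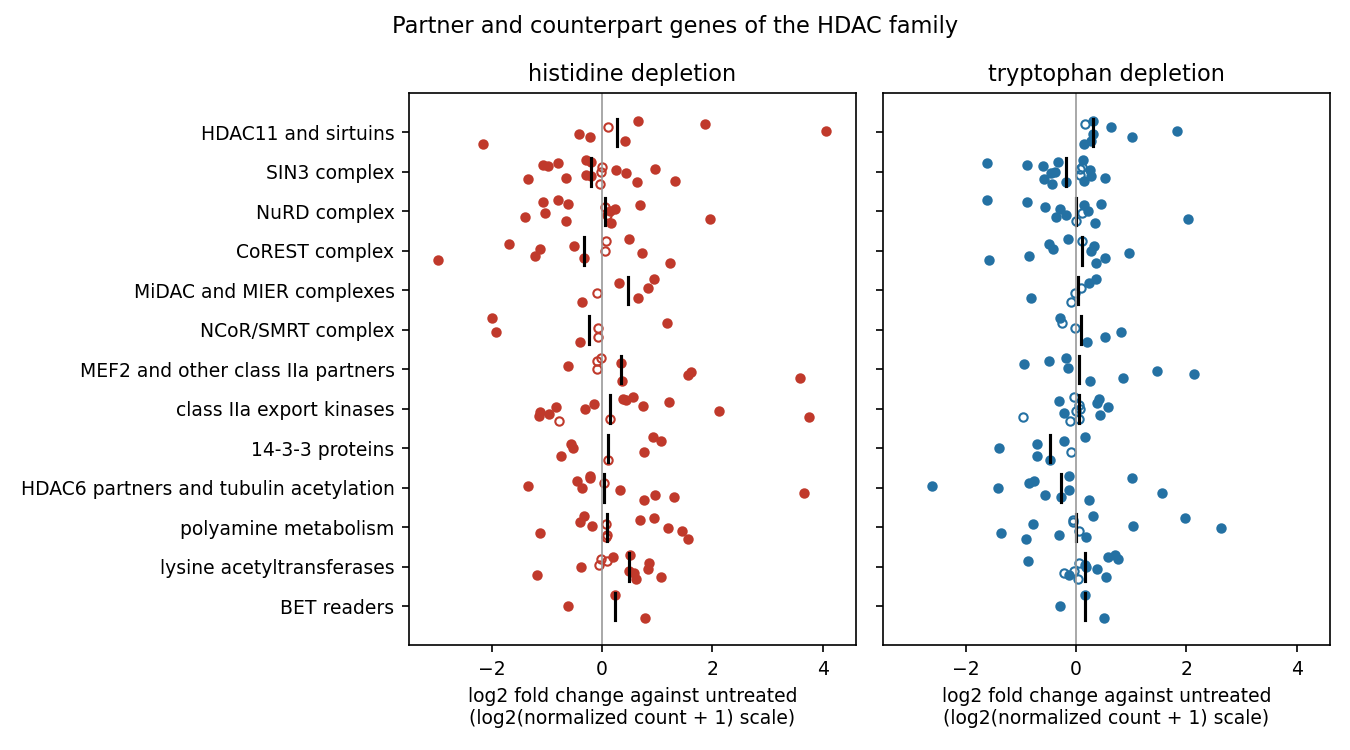
Log2 fold change of each tested gene in the 13 lists of HDAC partners and counterparts, after histidine depletion (left) and tryptophan depletion (right), against untreated cells. Filled points passed limma's adjusted p of 0.05, open points did not, and black bars are list medians; both directions occur in most lists, and SIRT4 at 4.07 is the highest point on the left.

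The complexes that hold HDAC1 and HDAC2 had members in both directions. Of 17 SIN3 complex genes, 5 were higher and 9 lower after histidine depletion (median -0.19), and 5 and 9 after tryptophan depletion (median -0.18). RBBP4 and RBBP7, histone chaperones shared by SIN3 and NuRD, fell after both depletions. RBBP7 was at -0.80 (limma adjusted p = 2.63e-13) after histidine and -1.62 (adjusted p = 3.54e-68) after tryptophan depletion, and RBBP4 at -1.08 (adjusted p = 9.58e-16) and -0.88 (adjusted p = 5.72e-39). SAP18, another subunit found with SIN3, rose after histidine depletion from 8742 and 9211 to 22469 and 22600.5 normalized counts (1.33, adjusted p = 2.27e-17). Of 13 NuRD genes, 5 were higher and 6 lower after each depletion, and with a mean of at least 50 required 4 of 12 were higher and 6 lower after histidine depletion. MTA1, a scaffold of NuRD, fell after histidine depletion (-1.40, adjusted p = 1.68e-17) and less after tryptophan depletion (-0.36, adjusted p = 1.90e-11), with a direct difference of -1.06 (adjusted p = 2.30e-13).

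Among 11 CoREST complex genes, 3 were higher and 6 lower after histidine depletion (median -0.33), and 5 and 5 after tryptophan depletion (median 0.097). RCOR1, the scaffold CoREST, rose (1.24, limma adjusted p = 2.10e-16), while its paralog RCOR2 went from 113 and 126 normalized counts to 9.94 and 20.3 (-2.98, adjusted p = 5.67e-10). KDM1A, the histone demethylase of the complex, fell after histidine depletion (-1.21, adjusted p = 6.55e-17) and after tryptophan depletion (-0.85, adjusted p = 1.84e-37). The complex thus held scaffolds that moved apart. Of 6 MiDAC and MIER complex genes, 4 were higher and 1 lower after histidine depletion (median 0.48). DNTTIP1, a subunit of the mitotic deacetylase complex, rose after histidine (0.65, adjusted p = 8.80e-11) and fell after tryptophan depletion (-0.82, adjusted p = 9.07e-31).

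HDAC3 works with NCoR and SMRT, and 1 of the 6 genes of that list was higher and 3 lower after histidine depletion (median -0.23). The higher gene was GPS2, at 14.1 and 13.8 normalized counts in untreated cells and 40.7 and 26.3 without histidine. With a mean of at least 50 required it was left out, and 0 of 5 were higher and 3 lower (median -0.39). TBL1X, a WD-repeat subunit, went from 2723 and 2914 normalized counts to 706 and 776 (-1.93, limma adjusted p = 1.55e-18). After tryptophan depletion it rose to 5034 and 4774 (0.81, adjusted p = 9.26e-34). NCOR1, a scaffold of the complex, was at -0.39 (adjusted p = 1.77e-07) after histidine and 0.20 (adjusted p = 7.84e-05) after tryptophan depletion. In the direct comparison 4 of the 6 genes were lower after histidine depletion and 1, again GPS2, higher (median -0.61).

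The class IIa enzymes bind MEF2 factors and BCL6, and 5 of 9 tested genes of that list were higher and 1 lower after histidine depletion (median 0.34). One of the 5 was MEF2C, at 2.16 and 0.988 normalized counts in untreated cells and 23.5 and 36.5 without histidine, which passed the filter on low values only through the histidine-depleted libraries, so its call is no support for the list. With a mean of at least 50 required, 4 of 8 were higher and 1 lower (median 0.16). MEF2D went from 3542 and 3731 normalized counts to 10716 and 10638 (1.55, limma adjusted p = 8.66e-19), and rose less after tryptophan depletion (0.84, adjusted p = 2.85e-36), with a direct difference of 0.70 (adjusted p = 3.49e-11). BCL6, a repressor that recruits class IIa HDACs, rose after histidine (1.61, adjusted p = 2.06e-17) and more after tryptophan depletion (2.15, adjusted p = 8.08e-73), a difference of -0.55 in the direct comparison (adjusted p = 1.03e-08). ANKRA2, an ankyrin repeat protein that binds class IIa HDACs, rose after tryptophan depletion (1.47, adjusted p = 9.63e-45) and did not pass after histidine depletion (-0.083, adjusted p = 0.373), where it passed as lower when scaled to total reads (-0.27, adjusted p = 0.00556).

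Export of class IIa HDACs depends on kinases and on the YWHA scaffold proteins that hold the phosphorylated enzymes in the cytoplasm. Of 15 kinase genes tested after histidine depletion, 7 were higher and 6 lower (median 0.15). The 7 include CAMK1G, at 2.16 and 3.95 normalized counts in untreated cells and 51.5 and 53.7 without histidine, and CAMK4, at 4.33 and 9.88 and then 26.2 and 39.5, and both passed the filter only through the libraries where they were high. The 6 include CAMK2B, at 16.2 and 11.9 in untreated cells and 2.71 and 11.1 without histidine (adjusted p = 0.0480), which passed only through the untreated libraries. These 3 calls are no support for the list. With a mean of at least 50 required, 5 of 10 were higher and 5 lower (median 0.12). SIK3, a salt-inducible kinase, rose (1.22, limma adjusted p = 1.74e-16), and the calcium-dependent kinase genes CAMK2D (-0.96, adjusted p = 2.42e-14) and CAMK2G (-1.13, adjusted p = 2.47e-15) fell. After tryptophan depletion 4 of 13 kinase genes were higher, 2 lower and 7 not called. CAMK2D rose there (0.43, adjusted p = 1.54e-15).

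Of the 7 YWHA and SFN scaffold genes, 3 were higher and 3 lower after histidine depletion (median 0.11), and 1 was higher and 5 lower after tryptophan depletion (median -0.47). In the direct comparison 6 were higher after histidine depletion and 0 lower (median 0.74). YWHAQ was among the 6 at 0.13 (limma adjusted p = 0.0105) but at -0.043 under quantile normalization. Scaled to total reads, YWHAQ was not called (0.028, adjusted p = 0.412) and YWHAE was called lower (-0.16, adjusted p = 5.55e-05). YWHAZ rose after histidine depletion (1.07, adjusted p = 6.19e-13) and fell slightly after tryptophan depletion (-0.22, adjusted p = 0.000712). YWHAH fell more after tryptophan (-1.41, adjusted p = 1.36e-57) than after histidine depletion (-0.53, adjusted p = 1.07e-09), with a direct difference of 0.86 (adjusted p = 5.70e-12).

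The list of HDAC6 substrates and partners held genes in both directions. Of 11 genes, 5 were higher and 5 lower after histidine depletion (median 0.028), and 3 and 8 after tryptophan depletion (median -0.28). SQSTM1, an autophagy receptor that binds ubiquitinated cargo as HDAC6 does, went from 19227 and 20447 normalized counts to 249872 and 251341 after histidine depletion (3.66, limma adjusted p = 9.92e-24) and to 57714 and 58681 after tryptophan depletion (1.57, adjusted p = 6.58e-60). HSP90AA1, a chaperone deacetylated by HDAC6, rose after histidine (1.31, adjusted p = 1.04e-15) and fell after tryptophan depletion (-0.28, adjusted p = 1.67e-06). TUBA1B, an alpha-tubulin, fell after histidine depletion (-1.34, adjusted p = 2.51e-17) and more after tryptophan depletion, from 12407 and 11996 to 2024 and 1970 normalized counts (-2.61, adjusted p = 3.48e-93). The direct difference of TUBA1B was 1.25 (adjusted p = 6.26e-14). In the direct comparison 9 of the 11 were higher after histidine depletion and 1 lower.

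HDAC10 acts on acetylated polyamines, and 5 of 12 tested genes of polyamine metabolism were higher and 4 lower after each depletion. ODC1, the rate-limiting enzyme of polyamine synthesis, rose after histidine depletion from 21124 and 21980 normalized counts to 64426 and 63190 (1.57, limma adjusted p = 6.05e-18). After tryptophan depletion it fell to 11122 and 11644.5 (-0.91, adjusted p = 6.45e-39). SMS, spermine synthase, fell after both (-1.12, adjusted p = 3.34e-16, and -1.36, adjusted p = 1.86e-59). SAT2, annotated as a second spermidine/spermine acetyltransferase, rose after both, from 213 and 216 to 1342 and 1334 normalized counts after tryptophan depletion (2.64, adjusted p = 8.27e-66) and by 1.19 after histidine depletion (adjusted p = 4.75e-11).

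The counterparts of the HDACs are the lysine acetyltransferases, which add the mark, and the BET proteins, which read it. Of 13 acetyltransferase genes, 8 were higher and 2 lower after histidine depletion (median 0.49), and 7 and 2 after tryptophan depletion (median 0.16). CREBBP, a broad co-activator acetyltransferase, rose after histidine depletion from 6710 and 7615 to 14992 and 15164 normalized counts (1.08, limma adjusted p = 8.10e-15), and less after tryptophan depletion (0.55, adjusted p = 4.10e-21), with a direct difference of 0.51 (adjusted p = 2.81e-08). KAT2A, the acetyltransferase GCN5, fell after histidine depletion (-1.17, adjusted p = 9.10e-16) and slightly after tryptophan depletion (-0.14, adjusted p = 0.00767). HAT1, which acetylates newly made histones, fell after tryptophan depletion (-0.87, adjusted p = 1.71e-35) and did not pass after histidine depletion (0.082, adjusted p = 0.146; -0.11, adjusted p = 0.0172, when scaled to total reads). Among the readers, BRD2 rose and BRD3 fell after both depletions, with BRD2 at 0.79 (adjusted p = 5.61e-13) and BRD3 at -0.62 (adjusted p = 5.10e-10) after histidine depletion.

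The genes around HDAC9 on chromosome 7 did not share its values. Within 1 Mb of it, SNX13, a sorting nexin, was at 2653 and 2721 normalized counts in untreated cells and at 2800.3 and 2804 after histidine depletion (0.061, limma adjusted p = 0.293), and at -0.13 (adjusted p = 0.00984) when scaled to total reads. POLR1F, a subunit of RNA polymerase I, went from 1190.0 and 1337 to 2503 and 2475 (0.98, adjusted p = 3.54e-13) and fell after tryptophan depletion to 1046 and 965 (-0.32, adjusted p = 3.02e-06). TWIST1, FERD3L and TMEM196 had 0 reads in every library, and PRPS1L1 had at most 2.

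The genes with the profile most like HDAC9 were sought among 13180 protein-coding genes, by the root mean square difference of log2(normalized count + 1) over the 6 libraries, each profile centred on its own mean. The 5 closest were CCN1, a secreted matrix protein (0.14), the histone gene H2BC4 (0.16), NEURL3, a ubiquitin ligase (0.17), the transcription factor gene ETS1 (0.19) and the histone gene H4C8 (0.27). In the table of histidine depletion, ETS1 was at 870 and 978 normalized counts in untreated cells and at 40552 and 38207.5 after histidine depletion, a log2 fold change of 5.41. CCN1 was at 410.0 and 435 and then 19562 and 18902 (5.51), and H2BC4 at 32.5 and 36.6 and then 1695 and 1660 (5.57). After tryptophan depletion the same 3 genes were at 0.87, 0.92 and 1.04, beside 1.09 for HDAC9. NEURL3 and H4C8 were higher than HDAC9 there, at 1.33 and 1.72, and were at 5.70 and 5.99 after histidine depletion. The likeness is fixed by the way these genes were sought and is a description over 6 libraries in 3 groups.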

How the data were processed

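RNA of the 6 HT29 libraries was sequenced as stranded polyadenylated mRNA. Per the submitters' processing notes and the study's methods, the authors aligned the reads with STAR 2.7.10a to GRCh38, assigned them to exons of gencode 38 with HTSeq 2.0.5, and normalized the counts with DESeq2. The deposited values are a signal, counts divided by size factors, in 1 table per depletion with the same untreated libraries, and the tables were normalized separately. Dividing by the smallest step between values of a library recovered the reads, whole within 0.1 read for 100% of values. Libraries carried unique molecular identifiers, and whether the counts were made from them is not given in the sources used here.

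Each depletion was compared with untreated cells within its table, and both depletions with each other after scaling the recovered reads of all 6 libraries by median-of-ratios size factors. The test was limma 3.58.1 in R 4.3.3 (trend on, two-sided) on log2(normalized count + 1), a scale that understates fold changes of low genes. Genes had to reach a mean of 10, Benjamini-Hochberg adjustment ran over all genes tested, and the threshold was 0.05. Gene models and codons came from GENCODE 44 (60357 of 60676 identifiers matched, 319 did not), and promoters from RefSeq, GRCh38.p14. RPKM was computed from recovered reads. Reads not collapsed by identifier are not independent molecules, and no sample was left out.

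The members, lists and tests were chosen with earlier results of these data known. Named were the members, HDAC11, up to 3 genes per list and comparison with the largest change (adjusted p under 0.05, mean of at least 100 in the higher group, no overlap of groups), protein-coding genes within 1 Mb of HDAC9, genes sharing exons with a member and the 5 genes most like HDAC9. Not every gene so selected is reported here. As alternatives, edgeR 4.0.16 and DESeq2 1.42.0 were run on the recovered reads, and limma with a pseudocount of 0.5 or 8, with no filter or a mean of 50, with the trend off, after quantile normalization, after scaling to total reads (added after seeing the data), with a replicate block, with other libraries in the fit and with each library left out. The code was tested on simulated data. Protein sequences were not used here.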

Additional observations from a re-analysis of the deposited data

How the results depend on the processing

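HDAC9 kept its direction in every setting tried, with a log2 fold change between 5.63 and 5.88 over 16 settings for histidine depletion, between 1.02 and 1.15 over 16 for tryptophan depletion and between 4.61 and 4.76 over 18 for the direct comparison. For the other members, 407 of 420 alternative values kept their call and its direction or stayed not called, 11 lost the call and 2 reversed. The 407 include values not called whose sign changed, such as HDAC1 in the direct comparison when scaled to total reads (-0.050). The count of members higher after histidine depletion, 2 as reported, was 1 with limma without the trend, 1 with no filter, 0 with quantile normalization and 0 when scaled to total reads, and 1 to 2 when a library was left out (1 without histidine-depleted replicate 1 or 2 or untreated replicate 1). It rests on HDAC5, whose adjusted p was 0.118 without the trend, 0.0546 with no filter and 0.312 with quantile normalization, and on HDAC3, at 0.105 with quantile normalization. HDAC6 after histidine depletion was at 0.0628 without the trend. Under quantile normalization HDAC1 in the direct comparison reversed to -0.10 (adjusted p = 0.00548), GATAD2A after histidine depletion to -0.17 (adjusted p = 0.00130) and YWHAQ in the direct comparison to -0.043 (adjusted p = 0.185). Scaled to total reads, an alternative added after seeing the data, values after histidine depletion reversed to -0.051 for HDAC5, -0.14 for GATAD2A, -0.11 for HAT1 and -0.13 for SNX13, where the median of all genes was -0.18. HDAC10, not called on either scale, turned as well, from 0.093 to -0.092. Medians of all genes were -0.058 and -0.090 on that scale after tryptophan depletion and in the direct comparison. The cause of the reversals was not tested. Of 3477 alternative values of other named genes, 3392 kept their call and its direction or stayed not called, 47 lost and 33 gained a call, and 5 reversed. Counts of genes called stayed within 1.5 times of those reported in every setting. A replicate block gave 14432 genes called after histidine depletion, 12766 after tryptophan depletion and 14069 in the direct comparison, and 8, 8 and 7 of the members other than HDAC9, as without it. The replicate numbers did not pair the samples, since deviations of same-numbered libraries correlated at 0.042, 0.00196 and -0.041. Of the 5 genes most like HDAC9, all 5 were kept with a pseudocount of 0.5 and with a mean of at least 50, and 4 with a pseudocount of 8, alternatives chosen after seeing the data. Among the members depth limits HDAC10 most, at 32 to 47 reads per library.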

Other observations

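Some genes of the lists had too few counts for the rule on named genes and were picked after their values were seen. CHD5, a NuRD helicase gene, was at 16.2 and 22.7 normalized counts in untreated cells and at 84.9 and 70.9 after histidine depletion (log2 fold change 1.96, limma adjusted p = 2.11e-07), and at 83.1 and 78.2 after tryptophan depletion (2.03, adjusted p = 2.44e-12). MEF2C, a MEF2 factor of muscle and lymphocytes, was at 2.16 and 0.988 normalized counts in untreated cells, 23.5 and 36.5 without histidine and 2.08 and 4.50 without tryptophan. No fold is given for MEF2C because its untreated libraries were at or under 3 reads.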
